A study of Arabidopsis thaliana with 88 samples.

Results

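Among the 36877 loci of the authors' transcript annotation, 11071 are noncoding and 2152 of these lie between genes. The loci described here are the 895 intergenic long noncoding RNA (lncRNA) loci that overlap at least 1 fragment of a transposable element (TE). A locus was taken when its body shared at least 1 bp, on either strand, with an Araport11 TE fragment. It was left out when it touched a protein-coding locus of either annotation, a TE gene or a further transcript of the authors. They are set beside 587 intergenic lncRNA loci whose nearest TE fragment is under 1000 bp away (near TE) and 670 that are farther away (far from TE). The class was rebuilt from coordinates and need not match the authors' own class.

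An lncRNA is a transcript with no protein product, and a TE fragment is an annotated stretch of a transposon, often a remnant too short or too damaged to move. Plants silence TEs by methylating cytosines followed by G (CG), or lying in the contexts CHG and CHH, with H standing for A, C or T. CG methylation is copied after replication by MET1, CHG methylation is kept by CMT3 together with the histone methyltransferase KYP, and CHH methylation is renewed by CMT2 and by DRM2 in RNA-directed DNA methylation. CG methylation alone is also common inside expressed genes, whereas CHG and CHH methylation together mark silenced TEs.

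The data are bisulfite sequencing of leaf DNA from 88 libraries of 32 natural accessions, inbred lines of Arabidopsis thaliana that go by numbers. Untreated plants were sampled before bolting, and a library pooled leaves of 2 to 3 plants. Accession 6909 is Col-0, the line of the reference genome. Of the 32 accessions, 3 had 1 library (5486, 9512 and 9845), 13 had 2, 5 had 3 and 11 had 4, and libraries with the same replicate number were sown, grown and collected in the same round. The deposited values are the methylation level of a locus in a library, given here in percent. No read counts accompany them, so their depth is unknown and they carry no counting interval. A CHH value of exactly 1 was read as no data in all contexts. In CG a true 100% and a missing value cannot be told apart by that rule, and of the CG values kept, 9.83% in lncRNA loci over TE fragments and 1.10% in all loci were exactly 100%.

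The 895 loci were spread over the genome, with 187, 190, 207, 131 and 180 on chromosomes 1 to 5. Their median length was 743 bp, from 279 to 11523 bp. TE sequence covered a median of 39.2% of the locus length. It covered under 25% in 337 loci, 25 to 50% in 189, 50 to 75% in 105 and at least 75% in 264, of which 153 were TE sequence from end to end. A single TE fragment was overlapped by 508 loci, and the largest number was 22. The median locus lay in a stretch of 500 kb of which 40.0% was TE fragment, against 23.0% for near-TE loci and 7.64% for loci far from TEs. The transcript and its main TE fragment lay on opposite strands in 510 loci and on the same strand in 385. At a TE share of at least 75% they were opposite in 230 of 264 loci, and at a share under 25% in 143 of 337. Overlap with another locus of the class was found for 147 loci, in 81 pairs that share cytosines.

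Not every locus could be read in every accession. Levels and tests took loci that could be read in 80% or more of the libraries, which held for 601 loci (CG), 531 (CHG) and 602 (CHH). In CG these were 120 of 264 loci (45.5%) at a TE share of at least 75% and 251 of 337 (74.5%) at a share under 25%. The share of the 895 loci without data was 1.90% in 6909, while in the other 31 accessions it had a median of 20.3% and ran from 15.6% to 23.0%. At a TE share of at least 75% it was 4.07% in 6909 and 31.8% in the median of the others. The median over the other accessions was 13.7% for near-TE loci and 7.46% for loci far from TEs. Data in all 32 accessions were found for 394 loci, or 44.0%. The cause of the gaps was not tested. In 6909, where both kinds could be read, the loci with too few values elsewhere stood higher than those that entered, with CG levels of 70.1% and 53.4%, CHG levels of 29.6% and 17.8%, and CHH levels of 8.49% and 4.75%. The levels below describe the loci that entered.

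LncRNA loci over TE fragments were methylated in all 3 contexts, more so than the other intergenic lncRNA loci. Their mean CG level was 51.6% ± 2.96, the CHG level 17.4% ± 2.15 and the CHH level 4.99% ± 0.607 (SD over n = 32 accessions, as for all levels that follow). Near-TE loci had 26.8% ± 2.11 in CG, and loci far from TEs had 11.9% ± 1.21. The difference was taken within each accession. Over near-TE loci, the excess of loci over TE fragments was 24.8 ± 1.69 percentage points for CG, 8.67 ± 1.07 for CHG and 2.79 ± 0.374 for CHH. Over loci far from TEs it was 39.7 ± 2.08, 13.2 ± 1.71 and 3.54 ± 0.484 percentage points. Each of these 6 differences held in 32 of 32 accessions. Their level was close to that of Araport11 TE fragments as a whole, above it by 2.04 ± 1.35 percentage points in CG, in 31 accessions. TE genes, annotated genes of transposons, were higher in every accession, and the lncRNA loci minus TE genes gave -23.5 ± 1.92 percentage points in CG. The means hide a split class: the median locus had a CG level of 64.7%, a CHG level of 15.5% and a CHH level of 3.43%, against 1.40%, 0.513% and 0.479% for the median locus far from TEs.

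Methylation was higher where TE sequence filled more of the locus, mostly in 1 step at the top. The CG level was 44.5% ± 3.17 at a TE share under 25%, 46.9% ± 3.73 at 25 to 50%, 49.9% ± 3.46 at 50 to 75% and 74.7% ± 2.75 at 75% or more. Among the 3 lower classes, neighbours differed by less than their SD over accessions, although within an accession the second exceeded the first in 26 of 32 cases and the third exceeded the second in 26. In CHG the levels were 14.8%, 16.7%, 17.0% and 26.4%, and the top class stood apart in the same way. CHH climbed through all 4 classes, with 3.46% ± 0.493, 4.43% ± 0.677, 5.47% ± 0.769 and 8.73% ± 1.11. Between a TE share of at least 75% and one under 25%, the difference was 30.2 ± 2.49 percentage points for CG, 11.6 ± 1.78 for CHG and 5.27 ± 0.846 for CHH, positive in all 32 accessions. Within single growth rounds the CG difference lay between 29.9 and 30.7 percentage points. With a CHG value asked for in every library, which left 171 loci over all TE shares, the CHG difference was 2.97 ± 3.11 percentage points. How many of the 171 lay in each of the 2 classes compared was not counted. With CG values of 100% also read as missing, an alternative chosen after seeing the data, the CG difference was 25.6 ± 2.68. CG values of exactly 100% made up 21.9% of the values at a TE share of at least 75% and 5.99% at a share under 25%.

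**Figure D1:**
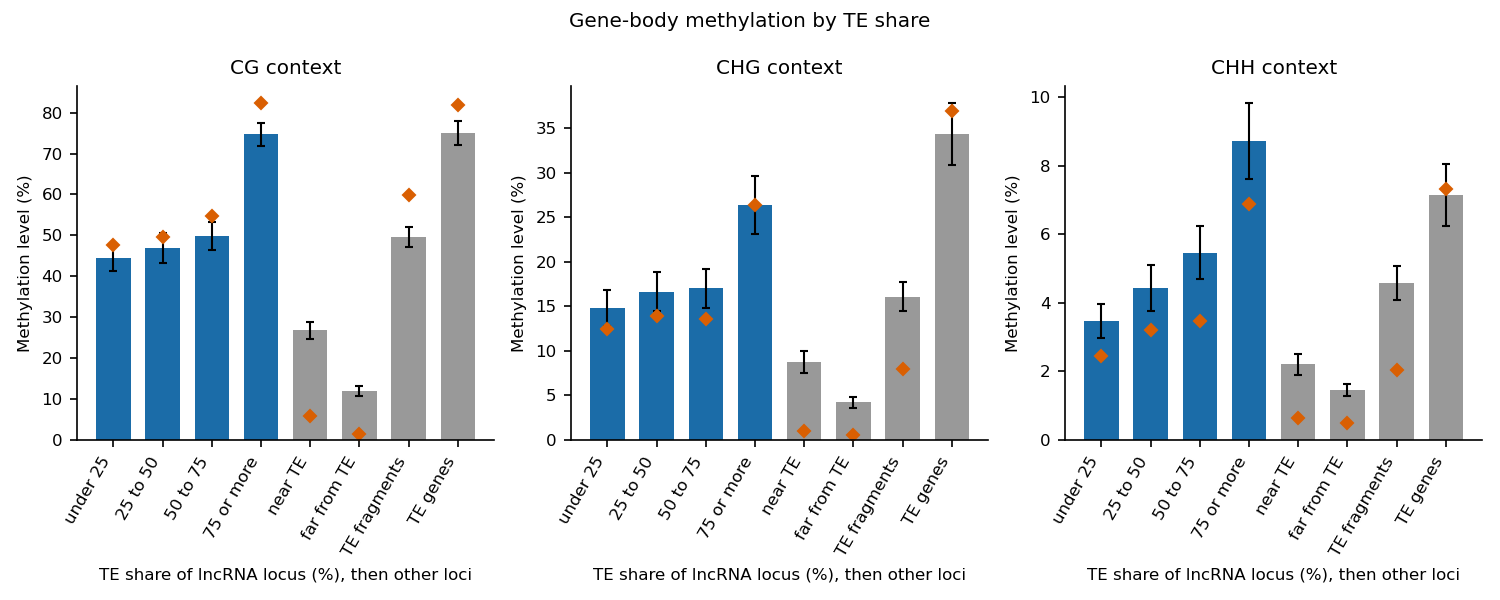
Mean methylation level in percent (bars, with the SD over 32 accessions) and the median over loci (diamonds) in CG, CHG and CHH. Blue bars are lncRNA loci over TE fragments by TE share of the locus and grey bars are the other classes; CG steps up to 74.7% in the class with a TE share of 75% or more.

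Loci that were almost wholly TE sequence resembled TE genes in CG but not in the other contexts. At a TE share of at least 75% the CG level was 74.7%, against 75.1% for TE genes, a difference of -0.427 ± 2.04 percentage points that was positive in 13 of 32 accessions. Their CHG level was the lower one in every accession, by a difference of -7.97 ± 1.91 percentage points. In CHH they lay above TE genes in 31 of 32 accessions, by 1.58 ± 0.842 percentage points. At the other end, a small overlap was already accompanied by methylation. The 80 loci with under 50 bp of TE overlap had a CG level of 40.4% ± 3.51, a CHG level of 13.6% ± 1.98 and a CHH level of 3.30% ± 0.577. Just outside the rule, the 115 loci with no overlap but a TE fragment under 50 bp away had 31.9% ± 3.43, 9.48% ± 1.72 and 2.20% ± 0.412.

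The level also differed with the surroundings of a locus. With the class split at its median TE density, loci in TE-dense stretches had a CG level of 67.0% ± 3.21, against 37.1% ± 3.00 in TE-poor stretches. In CHG the levels were 22.2% and 12.8%. The mean CHH level was 5.25% in dense and 4.74% in poor stretches, a difference of 0.501 ± 0.528 percentage points that was smaller than its SD. The median locus differed more, with 4.23% in dense and 2.11% in poor stretches. In TE-poor stretches, loci with a TE share of at least 75% exceeded those under 25% by a CG difference of 36.2 ± 3.26 percentage points, a CHG difference of 13.6 ± 1.98 and a CHH difference of 7.90 ± 1.40. In TE-dense stretches the same differences were 18.2 ± 3.71, 7.64 ± 2.54 and 3.15 ± 0.824. In CHH, loci with a TE share of at least 75% had 7.46% ± 1.12 in TE-dense stretches, against 10.6% ± 1.54 in TE-poor stretches. Against loci far from TEs the contrast also remained within strata. In TE-poor stretches loci over TE fragments had 37.1% in CG and loci far from TEs 8.64%, a difference of 28.4 ± 2.26 percentage points. In TE-dense stretches they had 67.0% and 51.1%, a difference of 15.9 ± 4.03, so that loci without a nearby TE fragment were methylated there as well. Among loci from 500 bp to under 1000 bp alone, those with a TE share of at least 75% exceeded those under 25% by 29.6 ± 3.01 percentage points in CG. Across loci, which are not independent replicates, Spearman's rho of the CG level was 0.323 with TE share and 0.465 with TE density (601 loci). For CHH it was 0.341 with TE share and 0.250 with TE density (602 loci).

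Loci with a TE fragment at the start of the transcript had a more methylated start, and they were also richer in TE sequence. The promoter window runs 200 bp to each side of the start, and 660 loci had a TE fragment in it, among them 260 of the 264 with a TE share of at least 75% and 207 of the 337 with a share under 25%. The window had a CG level of 56.2% ± 3.45 in loci with a TE fragment there, against 35.4% ± 2.95 in the 235 loci without. In CHG the levels were 15.8% and 10.7%, and in CHH 5.76% and 2.90%. The bodies of these loci differed too, with CG levels of 56.8% and 40.8%, and at a TE share under 25% with 46.6% and 41.4%. The window was not compared within classes of TE share. Among loci that could be read in both regions, the window of loci with a TE fragment in it exceeded their body in CG by 1.01 ± 1.13 percentage points (307 loci). Where the window held none it lay below the body, with a difference of -5.82 ± 1.30 percentage points, in 32 of 32 accessions (174 loci). In CHG the window lay below the body in all 32 accessions in both groups, with differences of -2.59 ± 0.791 percentage points where it held a TE fragment (217 loci) and -2.60 ± 0.862 where it held none (149 loci). The window reaches into the body, so the regions share cytosines. Strand went with level as well: loci with the TE fragment on the same strand had 47.4% in CG and 4.09% in CHH, while those with it on the opposite strand had 55.3% and 5.76%. At a TE share under 25% the CG level was 44.5% for the same and 44.5% for the opposite strand, and at a share of at least 75% it was 71.0% and 75.3%.

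The level of a locus resembled that of the TE fragment it lies over. In 445 loci the CG level of both could be read, and the fragment stood higher in 281 of them (63.1%), with a median difference of -1.93 percentage points for locus minus fragment. Spearman's rho across these loci was 0.745 in CG, 0.761 in CHG (302 loci) and 0.758 in CHH (463 loci), a description that rests in part on cytosines shared by both. Exceptions existed on both sides. In 14 loci the fragment had a CG level of at least 50% while the locus had at most 10%, and in 4 loci the reverse held. TE fragments under these lncRNA loci were also more methylated than other TE fragments, with 61.2% against 49.1% in CG and 6.35% against 4.50% in CHH. The fragments were not matched for TE density. Of those under 500 bp, 261 of 941 under these loci and 7045 of 18608 others had enough data in CG. Their CG levels were 56.6% and 42.3%, a difference of 14.3 ± 1.66 percentage points. Among fragments of at least 2000 bp they were 73.0% and 73.8%, and the difference of -0.832 ± 1.32 percentage points was smaller than its SD over accessions.

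Single loci ranged from unmethylated to fully methylated, with most at either end. Of the 531 loci with enough data in all contexts, 290 (54.6%) averaged 50% or more in CG, 124 (23.4%) averaged 10% or less and 117 (22.0%) lay between. In all loci of the annotation those shares were 9.36%, 57.6% and 33.1%. Nearly every CG-methylated locus was also methylated in CHG: 277 of the 290 had a CHG level of at least 10%, and 13 did not. The same held for 118 of 127 near-TE loci and 56 of 59 loci far from TEs with a CG level of at least 50%, and for 2326 of 3197 among all loci. At a TE share of at least 75%, 73 of 86 loci had a CG level of at least 50% and 5 had at most 10%, while under 25% the numbers were 113 and 71 of 238. Over accessions, most loci had CHG levels on both sides of 10%. A CHG level of at least 10% was found in all accessions with data for 53 loci (9.98%), in some for 380 (71.6%) and in none for 98 (18.5%). In all loci the shares were 2.51%, 12.7% and 84.8%.

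**Figure D2:**
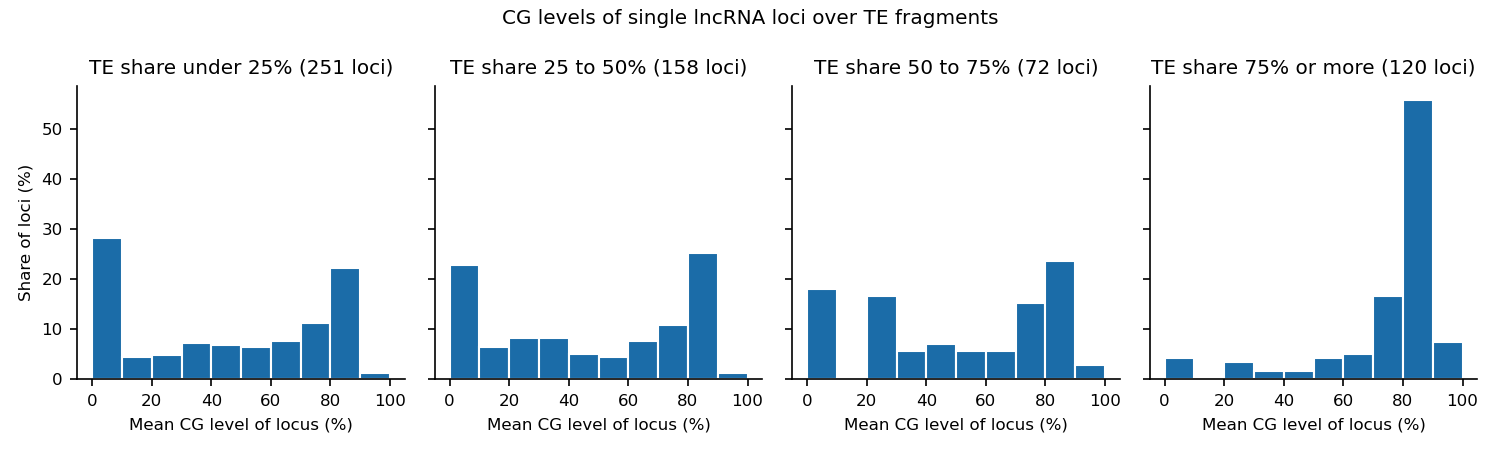
Histograms of the mean CG level of single lncRNA loci over TE fragments, in percent, by TE share of the locus; the vertical axis is the share of loci in percent. The lower classes have a peak below 10% and another above 80%, and the 120 loci with a TE share of 75% or more lie mostly above 80%.

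Whether accessions differ was tested locus by locus with an F-test of the accession term on all 88 libraries. Its variance was moderated with limma, and p-values were adjusted by the Benjamini-Hochberg method over all loci of the annotation. In CHG, 238 of 531 tested loci over TE fragments (44.8%) passed an adjusted p of 0.05, against 15.9% of all loci, 37.4% of near-TE loci and 25.2% of loci far from TEs. In CHH, 170 of 602 (28.2%) passed, against 11.0% of all loci. In CG, 392 of 601 (65.2%) passed, which is fewer than the 72.5% of all loci. With fully methylated CG values also read as missing, 332 of 444 loci (74.8%) passed, against 74.4% of all loci. The lower share in CG was thus not kept under that alternative, which was chosen after seeing the data. All 3 contexts passed in 106 of 531 loci, none in 122 and CG alone in 137. With a TE share of at least 75%, 48.3% of loci were called in CG and 36.0% in CHG, against 71.7% and 49.2% at a share under 25%. The spread went with the calls in CG, where the median SD of accession means was 11.6 against 13.3 percentage points. It did not in CHG, with 12.0 against 9.18. Nor did it in CHH, with 4.67 against 1.84 beside calls at 24.8% against 30.7%. Among loci of like level, the higher CHG share was found in the lowest band alone. Where the mean CHG level was under 10%, 35.6% of loci over TE fragments and 12.0% of all loci passed. At 10 to 30% the shares were 57.4% and 67.8%, and at 30% or more 38.3% and 53.8%. The typical spread was large: over loci, the median SD of accession means was 13.0 percentage points for CG, 9.72 for CHG and 2.49 for CHH, against 5.96, 0.496 and 0.263 in all loci.

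**Figure D3:**
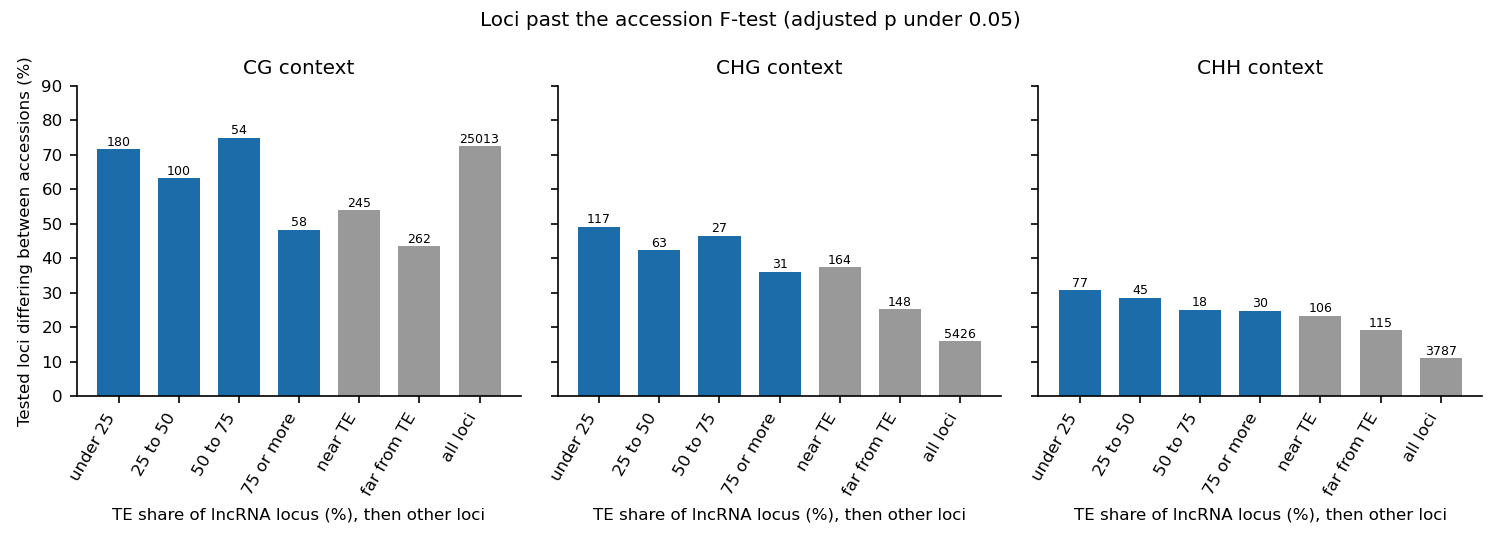
Share of tested loci, in percent, that differed between accessions at an adjusted p under 0.05 (limma-moderated F-test), with the number of such loci above each bar. Blue bars are lncRNA loci over TE fragments by TE share and grey bars the other classes; in CHG and CHH every blue bar stands above the bar of all loci, and in CG the bar for 50 to 75% does (54 of 72 loci, against 72.5%) and the other 3 do not.

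Growth rounds left no call on single loci. After the accession term, 0 loci over TE fragments passed the limma-moderated F-test of growth round in any context, against 0.0%, 0.00293% and 0.0% of all loci in CG, CHG and CHH. At an unadjusted p under 0.05 there were 20 of 601, 32 of 531 and 36 of 602 loci (3.33%, 6.03% and 5.98%), against 4.62%, 5.49% and 7.20% of all loci. With arcsine-transformed fractions the adjusted count was 0 as well.

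The class as a whole differed between accessions by more than between libraries of an accession. The SD between accessions was 2.96 percentage points for CG, 2.15 for CHG and 0.607 for CHH, and the mean SD between libraries of 1 accession was 0.735, 0.648 and 0.332. In CG, accession 6220 was highest at 57.5% ± 0.520 (4 libraries), followed by 5486 at 56.0% (1 library) and 6184 at 55.6% ± 0.0880 (2 libraries). Accession 9512 was lowest at 43.8% (1 library), below 9518 at 47.0% ± 0.698 and 9588 at 47.5% ± 0.542 (4 libraries each), which differed from each other by less than their spread. In CHG, 6911 (21.9% ± 0.683, 2 libraries) and 9057 (21.2% ± 0.107, 2 libraries) were highest. The libraries of 6911 had 22.4% and 21.4%, and those of 9057 had 21.3% and 21.2%. Accession 10012 was lowest in CHG at 12.7% ± 0.117 (3 libraries), and the next, 6244, had 14.0% ± 0.345 (2 libraries). In CHH, 6911 was highest at 6.71% ± 0.396 and 10012 lowest at 3.84% ± 0.0920. Accession 6909 lay in the middle, with 53.4%, 17.8% and 4.75%. Libraries of growth round 1 read higher in CHG, by 0.878 ± 0.843 percentage points over the mean of their accession, with 16 of 18 libraries above it. In rounds 2 to 4 the deviations were -0.294, -0.223 and -0.212 percentage points. The part of growth round in the accession order was not tested.

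**Figure D4:**
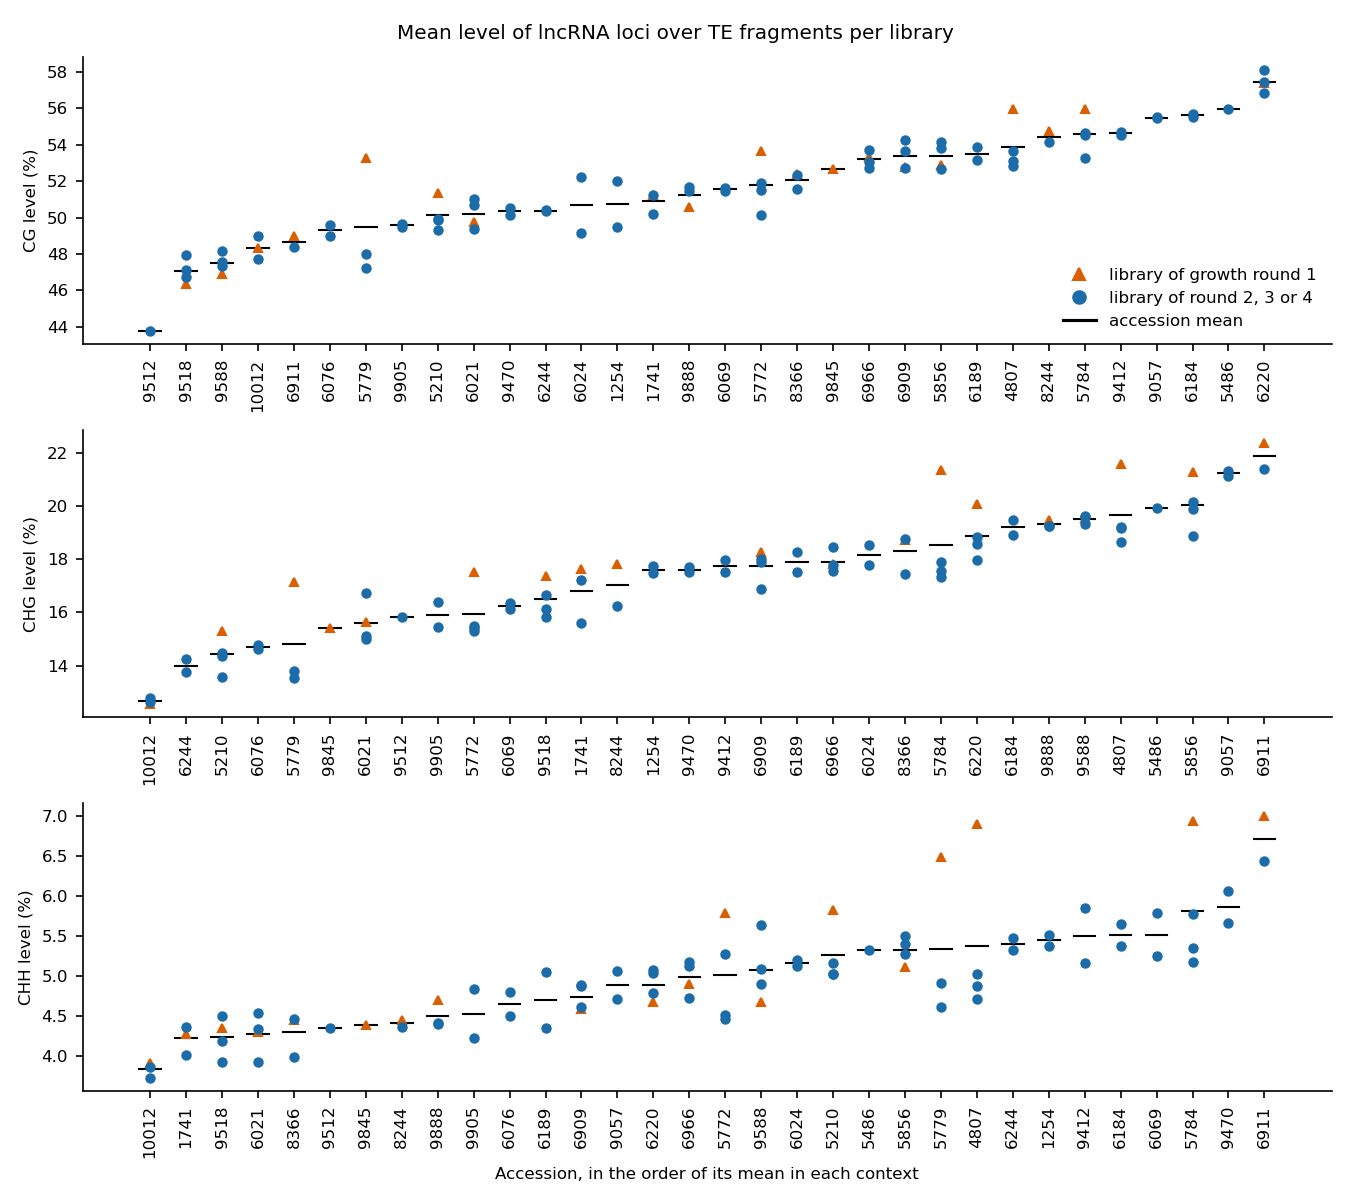
Mean level in percent of lncRNA loci over TE fragments in each of 88 libraries (points), with accessions in the order of their mean (lines) in CG, CHG and CHH; triangles are libraries of growth round 1. In CHH, 6911 stands highest and 10012 lowest, and several triangles lie above the other libraries of their accession.

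Many loci had a low CG level in 1 accession and a high one in another. A locus was counted as switching when 1 accession averaged 10% or less in CG and another 50% or more, each over at least 2 libraries. This held for 227 of 601 loci over TE fragments (37.8%), against 14.7% of all loci, 37.2% of near-TE loci and 26.2% of loci far from TEs. At a TE share of 75% or more 30 of 120 loci switched, against 111 of 251 at a share under 25%. With CG values of 100% read as missing, 160 of 444 loci (36.0%) switched. The count asks for no test of the accession term. CUFF_NC.3811 and CUFF_NC.7023, described below, met it but did not pass in CG (adjusted p 0.775 and 0.0645, limma-moderated F-test). How many of the 227 loci passed was not counted. The methylated state was the more frequent in 141 of the 227 loci and the unmethylated state in 83, and in 46 loci a single accession was low. The other contexts followed CG. Among accession means of these loci with CG of at least 50%, 77.6% of 3290 had a CHG level of at least 10%, against 4.19% of 2197 among those with CG of at most 10%. A CHH level of at least 1% was reached by 83.3% of 3370 and 22.6% of 2218 such means with a CHH value. Accession 6911 was low at the largest share of the switching loci, 96 of 206 with a value (46.6%), and 6220 at the smallest, 41 of 218 (18.8%).

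The locus with the widest spread in CHG was CUFF_NC.7145 (chr3:23156983-23158764, TAIR10, plus strand), an intergenic lncRNA 397 bp from MYB11 (AT3G62610), which encodes a transcription factor of flavonol synthesis. It fell into 2 groups of accessions with none between. In CG, 20 accessions had from 55.2% (8366) to 88.4% (5486) and 12 had at most 6.45%. The 4 libraries of 6909 had 80.3%, 71.2%, 62.5% and 80.8% in CG, and those of 9518 had 0%, 4.08%, 0% and 0%. In CHG the same 20 accessions had at least 10% and the same 12 at most 10%, up to 71.9% in 6911 (adjusted p 2.97e-22, limma-moderated F-test). In CHH the accession means ran from 0.292% in 9518 over a median of 5.65% to 17.6% in 9470. The TE fragment under it, AT3TE94380, covers 18.7% of the locus on the opposite strand. Its own CG level ran from 0% to 100% over accessions with a median of 0%. The fragment read 100% in 9905, 9512 and 9845, of which the last 2 have 1 library each and had 1.43% and 3.03% over the locus. A true 100% and a missing value cannot be told apart here.

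CUFF_NC.5104 (chr3:2250942-2251750, minus strand) lies 145 bp from ERMO2 (AT3G07100), which encodes a SEC24 coat protein of vesicles that leave the endoplasmic reticulum. Its CHG level ran from 0% over a median of 2.38% to 62.3% in 9057 (adjusted p 1.48e-21). The 4 libraries of 6909 had 61.9%, 49.1%, 45.9% and 58.8% in CHG, against 0%, 0%, 0% and 10.7% in 9518. In CG, 14 accessions had at least 50% and 14 at most 10%, and all 14 of the low ones were also at most 10% in CHG. Of the 14 high ones, 1254 had libraries at 0% and 100% in CG, both with 0% in CHG and CHH. The TE fragment AT3TE09475 covers 40.2% of this locus on the same strand.

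The 3 other loci with the widest CHG spread differed in how firm the call was. CUFF_NC.6600 (chr3:18027547-18028115, plus strand), 1543 bp from AT3G48660, touches its TE fragment by 1.05% of its length and had a CHG level from 0% over a median of 1.63% to 71.1% in 6184 (adjusted p 4.05e-11). It was unmethylated in 6909, with 0% in CG and CHG. CUFF_NC.7023 (chr3:22112718-22113735, plus strand), 985 bp from AT3G59850, had CHG levels from 0% to 72.7% in 9845 with a mean of 21.8% (adjusted p 6.03e-08), while its TE fragment kept a CG level of at least 55.0% in every accession with data. With the values as deposited, that CHG call was lost (adjusted p 0.571). CUFF_NC.6265 (chr3:14305526-14306068, minus strand) is TE sequence throughout and had CHG levels from 0% upwards with a median of 53.8% (adjusted p 0.0434). That call was lost in 7 of the alternatives, at adjusted p-values between 0.0559 and 0.314.

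Loci with the widest CG range were picked from 26 loci that reached from 0% to 100%, and the identifier alone decided which 5 of these are given. Such a range needs an accession mean of exactly 100%, a value that cannot be told apart from missing data. CUFF_NC.10071 (chr5:12511113-12512584, minus strand) had a CG level of at least 59.1% in 27 accessions and at most 2.83% in 6220, 6244, 9518, 9588 and 10012 (adjusted p 7.5e-39, limma-moderated F-test). The libraries of 6909 had 84.5%, 79.1%, 87.8% and 87.0%, and all 4 of 9518 had 0%. In the same 5 accessions CHG was at most 1.13% and CHH at most 0.752%. The TE fragment AT5TE44330, which makes up 3.13% of the locus, had a median CG level of 85.1% over accessions. It had 91.8% in 9518, where the locus had 0%.

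CUFF_NC.10276 (chr5:15506645-15507896, minus strand), 299 bp from AT5G38720, had at least 69.3% in CG in 28 accessions and at most 1.52% in 1254, 6069, 9470 and 10012 (adjusted p 7.56e-35). Its 4 libraries of 6909 had 82.1%, 76.2%, 86.7% and 74.0%, against 4.55%, 0% and 0% in the 3 of 10012. The highest value, 100% in 5772, rests on 2 libraries that had 0% in CHG and CHH, and the other 2 had no data. CUFF_NC.10192 and CUFF_NC.10193 (chr5:14749262-14749848, plus strand, and chr5:14749329-14749847, minus strand) are transcripts of 1 region, 469 and 470 bp from AT5G37250, and are not independent. Both had 27 accessions at 50% or more in CG and 2 at 0%. CUFF_NC.10178 (chr5:14587569-14588215, plus strand), 1899 bp from the cationic amino acid transporter gene CAT3 (AT5G36940), had 1 accession, 9905, at 0%. Its adjusted p in CG of 0.00561 was not kept without replicate 3 (0.0875) or without replicate 4 (0.0663).

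**Figure D5:**
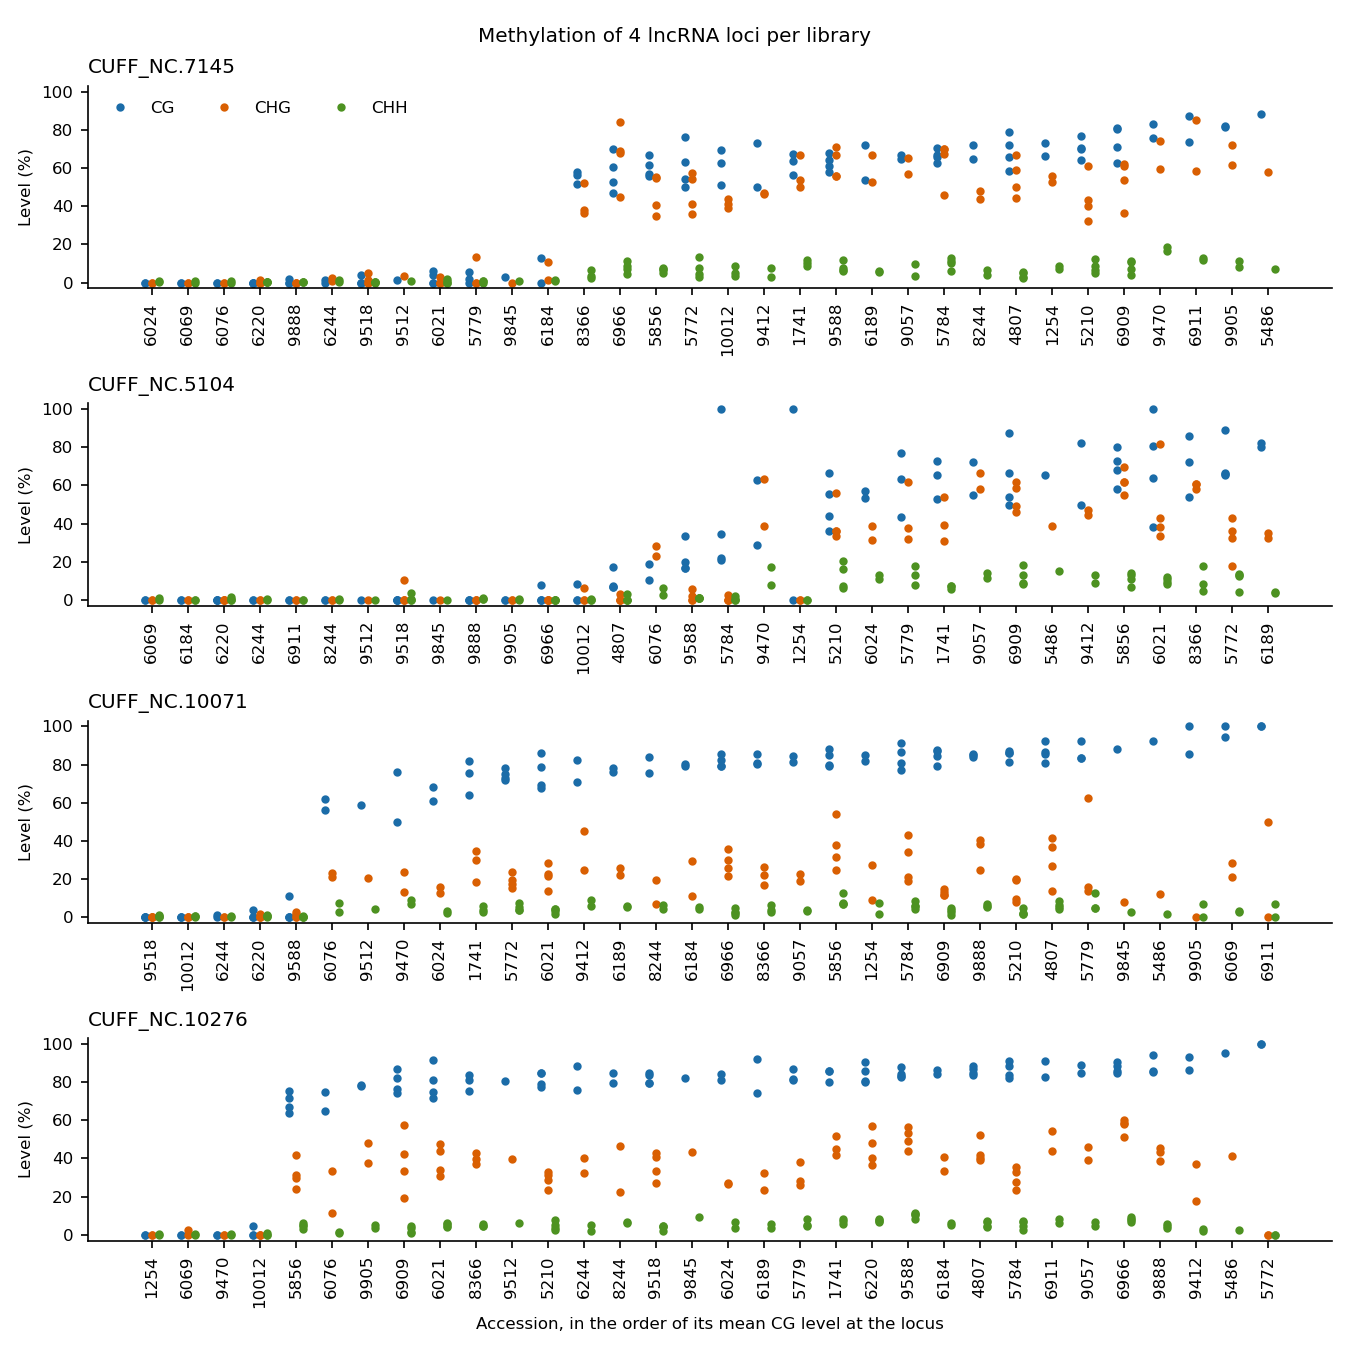
Methylation level in percent of 4 lncRNA loci in each library (points; CG blue, CHG orange, CHH green), with accessions in the order of their mean CG level at the locus. At CUFF_NC.7145 12 accessions lie near 0% and 20 at 55.2% or more, with none between, and at CUFF_NC.10071 and CUFF_NC.10276 5 and 4 accessions lie near 0%.

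The highest CHH levels, the context renewed by RNA-directed DNA methylation and CMT2, were found at loci with a mean between 20.4% and 36.6%. CUFF_NC.3542 (chr2:6892214-6892885, minus strand), 804 bp from OTP51, a gene for chloroplast intron splicing, is TE sequence over 99.7% of its length. Its CHH level ran from 0% in 10012 over a median of 36.8% to 65.5% in 5486. Each of these ends rests on 1 library with data, at 100% in CG and without a CHG value. The CHG mean of the locus was 76.8%. Accessions did not pass the test in CHH (adjusted p 0.31), except with the values as deposited (0.00265) or without replicate 4 (0.0271). CUFF_NC.8132 (chr4:11137493-11139358, minus strand), 250 bp from AT4G20800, lies wholly in the TE fragment AT4TE51100. It had a mean CHH level of 22.2% with a range from 0% to 48.0% (adjusted p 2.66e-05) and differed between accessions in CG as well (adjusted p 1.43e-24), with 24 accessions at 65.6% or more and 6069, 9845 and 9888 at 5.88% or less. CUFF_NC.1635, CUFF_NC.9638 and CUFF_NC.6877 had mean CHH levels of 23.7%, 20.7% and 20.4%. Of these 3, CUFF_NC.6877 passed the test in CHH (adjusted p 0.000851), and did not without replicate 1 (0.0516) or replicate 4 (0.0893). CUFF_NC.1635 did not pass (adjusted p 0.236), except with arcsine-transformed fractions (0.0389).

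A few loci were mostly TE sequence and yet had a low mean CG level. Of the 86 loci with a TE share of at least 75% and data in all contexts, the 5 with the lowest CG level had means from 0.613% to 8.50%, and all 5 lay in stretches with a TE density of at most 28.0%. CUFF_NC.2688 (chr1:28520850-28521952, minus strand), 601 bp from AT1G75980, reached at most 6.72% (CG), 1.56% (CHG) and 2.27% (CHH) in any accession, and its TE fragment was as low, with a CG mean of 0.658%. CUFF_NC.9393 (chr5:4894903-4895491, minus strand), 258 bp from AT5G15110, had 0% in CG in the median accession and at most 7.14% in 31 of 32. The exception was 6909, whose replicate 3 read 100% and the other 3 libraries 0%, all with 0% in CHG and CHH. Accessions did not pass the test in CG there (adjusted p 0.965), but did with CG values of 100% read as missing (0.00597). CUFF_NC.3811 (chr2:9469133-9469515, plus strand), 1184 bp from the Rab GTPase gene RABH1d, is wholly TE sequence and had means of 3.44% in CG and 0.0601% in CHG. Its CG level exceeded 10% in 1254, 5856 and 6220, in each of which 1 library read 100% in CG with no CHG methylation or no CHG value. CUFF_NC.8154 (chr4:11358048-11360938, plus strand), 780 bp from the U-box gene PUB8, had a CG mean of 3.72% (n = 31 accessions) while its TE fragment had 12.4%. The fragment had a median of 6.48%, and its mean takes in a highest value of 100%, which cannot be told apart from missing data. The locus reached 18.5% in 6220, and accessions passed the test in CG (adjusted p 2.85e-06, limma-moderated F-test). CUFF_NC.7676 (chr4:6207824-6208948, plus strand) was highest of the 5, with 8.50% in CG and 49.9% in 5210. It lay between 10% and 50% in 7 accessions and passed the same test in CG (adjusted p 1.1e-05).

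The opposite case was a locus with a TE share under 25% and TE-like methylation. Among the 238 loci with a TE share under 25%, the 5 with the highest CHG level had means from 46.0% to 51.4%, next to CG means from 69.8% to 89.7%. CUFF_NC.6125 (chr3:12274755-12275186, minus strand) carries 9.03% TE sequence and had 51.4% ± 8.82 in CHG (SD over n = 31 accessions), from 38.9% in 6909 to 74.8% in 9888. CUFF_NC.10119 (chr5:13651935-13652780, minus strand), with 3.31% TE sequence, had 50.5% ± 7.22 in CHG and 89.7% ± 3.51 in CG (n = 32 each). Accessions passed the test in none of the 3 contexts at either locus. CUFF_NC.3091 (chr2:1888436-1890071, minus strand), 612 bp from the telomere protein gene AtPOT1a, carries 23.9% TE sequence and had 46.6% ± 9.16 in CHG. CUFF_NC.2799 (chr1:29479871-29480237, plus strand), 1631 bp from the glutathione transferase gene GSTU21, carries 6.27% TE sequence. It had 46.0% ± 14.1 in CHG (n = 27 accessions with data). This includes 5486, which has 1 library and was at 0% in all 3 contexts. CUFF_NC.10192, described above, carries 24.2% TE sequence, was the fifth and is counted under both rules. The surroundings of these 5 loci were TE fragment over 77.2%, 48.2%, 51.2%, 4.50% and 30.6% of the 500 kb window, in the order CUFF_NC.6125, CUFF_NC.10119, CUFF_NC.3091, CUFF_NC.2799 and CUFF_NC.10192.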

How the data were processed

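The deposited values are methylation fractions per locus and library, which the authors gave for gene bodies and promoter windows. The build is TAIR10, per the submitters' processing notes; the aligner and the caller were not given in the sources used here. Coordinates count from 1. Neighbouring genes carry RefSeq names. CHH values of 1 were read as no data in all contexts, CHG values of 1 in CHG, and CG loci at 1 throughout were dropped. Levels are means over loci per library, then per accession. F-tests used limma 3.58.1 in R 4.3.3 and were tested on simulated data. The rest was done with pandas 2.3.3, NumPy 2.4.6, SciPy 1.17.1 and matplotlib 3.10.9 under Python 3.11.15.

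Replicate numbers pair libraries, since the design text makes them growth rounds, although the deviations of single loci were hardly correlated within a round (median r over loci -0.00125 in CG, 0.00382 in CHG); the mean CHG level of round 1 was raised, as given above. The F-test of accession set the spread between accessions against that between libraries of an accession, which were of different growth rounds. Named loci are the 5 with the widest CHG spread among those called, the highest CHH, the lowest CG at a TE share of at least 75%, the highest CHG under 25%, and the widest CG range without overlap of libraries. Members and lists were chosen with earlier results of these data known. Alternatives covered missing values, coverage, medians, overlap, length, transformation, moderation, accessions and replicates.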

Additional observations from a re-analysis of the deposited data

Results flagged for a closer look

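With 4 libraries each, 11 accessions could be examined for a library that stands apart in the level of lncRNA loci over TE fragments, in 33 groups over the 3 contexts. In 5 of them the gap of 1 library to the nearest other exceeded Dixon's 95% value, which chance gives in about 1 of 20 groups. In CHG, replicate 1 of 5772 had 17.5%, against 15.3% to 15.5% in its other libraries. Replicate 1 of 5784 had 21.3% in CHG, against 17.4% to 17.9%. Replicate 2 of 9588 had 19.3% in CHG, against 19.6% in the other 3. In CHH, replicate 1 of 4807 had 6.90%, against 4.71% to 5.03%, and replicate 1 of 5210 had 5.82%, against 5.03% to 5.16%. Of the 5 libraries, 4 were of growth round 1, and the part of the round in this was not tested.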

How the results depend on the processing

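None of the differences in level given here reversed. The share of loci called in CG, lower than in all loci, was not lower with CG values of 100% read as missing (74.8% against 74.4%). With the values as deposited (1 kept as 100%), lncRNA loci over TE fragments had a CG level of 63.6%, a CHG level of 38.7% and a CHH level of 24.0%. The TE-rich minus TE-poor difference (TE share of at least 75% against under 25%) was then 26.7, 24.9 and 17.6 percentage points, the difference to loci far from TEs 43.6, 25.5 and 15.4, and 500 loci were called in CHG and 516 in CHH. With a value in every library, which left 244 loci in CG and 171 in CHG, the levels were 41.8%, 12.7% and 3.90%. The TE-rich minus TE-poor difference was 2.97 in CHG and 2.51 in CHH, and that to loci far from TEs 33.4, 9.45 and 2.80. Calls numbered 174, 75 and 73, and 86 loci switched. With values in at least 20% of libraries the levels were 54.6% in CG and 19.6% in CHG. Medians over loci gave levels of 66.2%, 10.4% and 2.14%, TE-rich minus TE-poor differences of 37.2, 19.2 and 3.61, and differences to loci far from TEs of 66.2, 10.4 and 2.01. Among loci of at least 500 bp the CG differences were 26.3 and 36.8. With CG values of 100% read as missing, an alternative chosen after seeing the data, the CG level was 41.7% and the differences 25.6 and 33.0. The cause of these shifts was not tested. Leaving out each replicate gave 325 to 364 calls in CG, 161 to 197 in CHG and 118 to 144 in CHH, and 194 to 220 switching loci. With the replicate block, 386, 226 and 164 loci were called. Of the named loci, CUFF_NC.2688 lost its CG call without replicate 4 (adjusted p 0.0751, limma) and CUFF_NC.10192 its CHG call without replicate 3 (0.195) or 4 (0.0874). Depth is unknown, so its part in the spread cannot be given.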
